A study of Mus musculus with 64 samples.

Results

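Fatty acids reach the hepatocyte as free acids bound to albumin or after lipases release them from lipoproteins, and inside the cell they travel on small cytosolic binding proteins. Described here are the 10 genes of this route chosen by name from the count table: Cd36, the fatty acid transport protein genes Slc27a1, Slc27a2, Slc27a4 and Slc27a5, the binding protein genes Fabp1, Fabp2, Fabp4 and Fabp5, and the lipoprotein lipase gene Lpl. They are 10 of the 53008 gene names in the table, and all 10 were among the 17318 that passed the filter on low counts. The study measured liver RNA of HuMgat2 mice and of wild-type (WT) mice. HuMgat2 mice are humanized: they express human MOGAT2, an acyltransferase that makes diacylglycerol from monoacylglycerol. Both genotypes were fed either a high-fat diet (HFD) or chow for 16 weeks and examined at the end. The groups were HuMgat2 on HFD, HuMgat2 on chow, WT on HFD and WT on chow, with 4 libraries each. The labels give no age, sex, strain background or feeding state, and they do not say how human MOGAT2 expression is driven in HuMgat2 mice. The submitters list 64 records, which are 4 records of each of 16 libraries, so each library was used once. Nothing in the labels says whether the libraries of a group came from separate animals, so the p-values measure the spread between libraries.

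CD36 is a surface glycoprotein that binds long-chain fatty acids and oxidised lipoproteins. It is scarce in normal rodent liver, and its gene is a known target of PPARγ and of other nuclear receptors there. The Slc27a proteins both carry fatty acids and join them to coenzyme A, with Slc27a2 and Slc27a5 typical of hepatocytes. The Fabp proteins hold fatty acids in solution in the cytosol: Fabp1 is the liver form, Fabp2 is best known in the intestine, Fabp4 in adipocytes and macrophages, and Fabp5 in epidermis and macrophages. Lipoprotein lipase acts on the capillary wall of muscle and adipose tissue and is kept low in adult hepatocytes.

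Total counts per library ranged from 12422647 to 25812129, and levels are given as CPM (counts relative to the library total, expressed per megaread), adjusted by TMM factors, the trimmed mean of log ratios between libraries. WT HFD library 4 stood apart: it held the fewest counts, albumin (Alb) took 0.85% of them, against 3.259% or more in the other libraries, and the median of its Spearman correlations to the other WT HFD libraries was 0.954, where every other library reached 0.978 or more within its group. Its summed macrophage and Kupffer cell markers were 1084 CPM, against 169.2 to 442.2 CPM in the other 15 libraries, and its summed hepatocyte markers 19690 CPM, against 47420 CPM or more. The counts of called genes among the 10 are therefore also given without this library. The mouse gene Mogat2 had 0 to 2 counts in HuMgat2 HFD libraries, 0 to 1 in HuMgat2 chow libraries, 2 to 12 in WT HFD libraries and 0 to 2 in WT chow libraries, which is too few to check the genotype, and human MOGAT2 was not measured. Hepatocyte markers dominated every library, as the plot of summed markers shows, so the libraries matched their liver label.

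**Figure D1:**
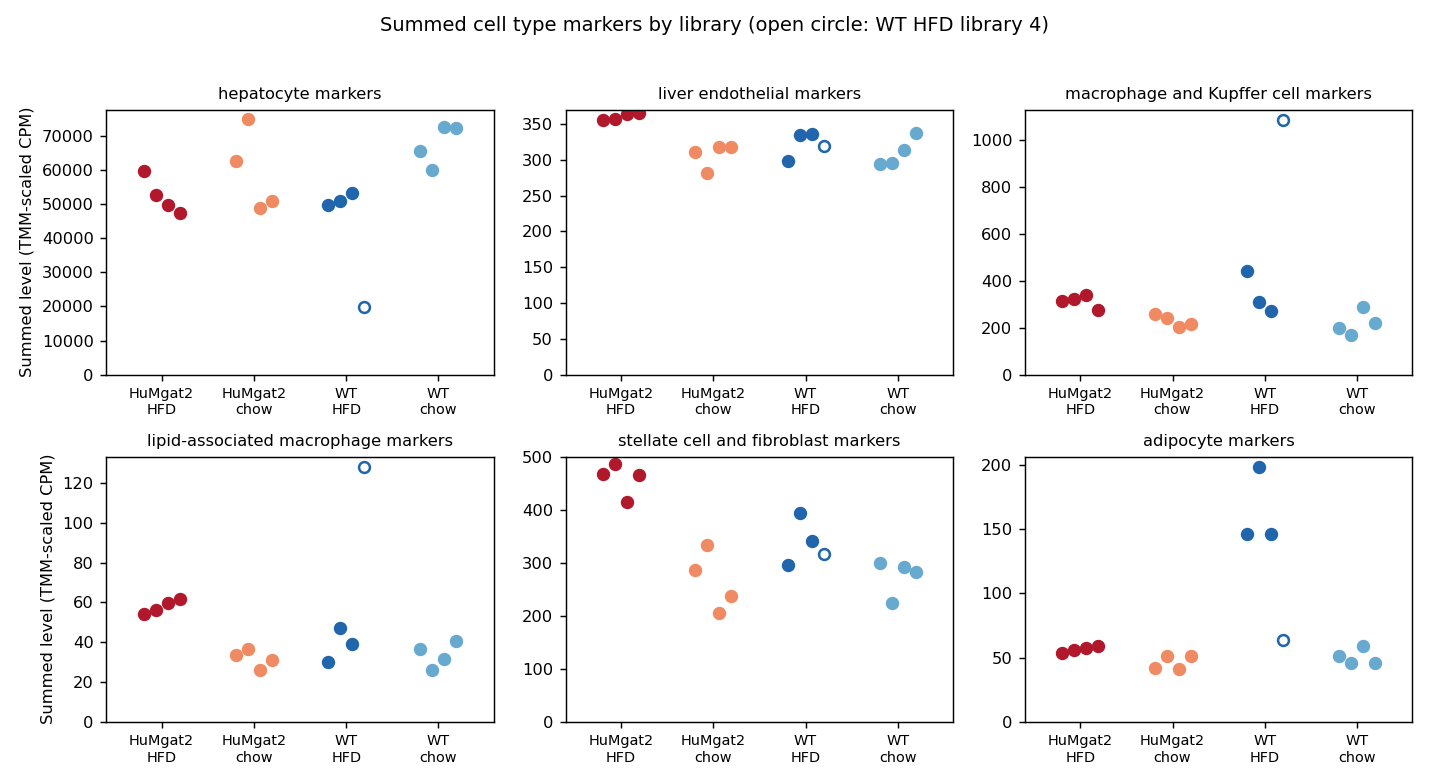
Summed TMM-scaled CPM of marker lists for 6 cell types in each of the 16 libraries, by group; each point is 1 library and the open circle is WT HFD library 4. That library had 19690 CPM of hepatocyte markers and 1084 CPM of macrophage and Kupffer cell markers, and the 4 HuMgat2 HFD libraries had 416.2 to 487 CPM of stellate cell and fibroblast markers, above all other libraries.

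Per length of transcript the 10 genes spanned a wide range, and their order was set mainly by the hepatocyte forms. Dividing by the longest coding transcript of the GENCODE M21 annotation, Fabp1 was highest in every group, at 1690 ± 261.6 CPM per kb in HuMgat2 on HFD, 1206 ± 335.8 in HuMgat2 on chow, 1357 ± 731.9 in WT on HFD and 1102 ± 187.9 in WT on chow (SD, n = 4 each). Slc27a2 came second in each group, between 258.3 and 354.4 CPM per kb, and Slc27a5 next, between 154.1 and 207.7 CPM per kb. In WT on HFD the spreads of Fabp1 and of Slc27a2 were wide and included the low values of library 4. Cd36 and Fabp2 followed. Cd36 stood at 75.69 ± 7.904 CPM per kb against 47.03 ± 4.368 for Fabp2 in HuMgat2 on HFD, whereas in both chow groups their mean ± SD overlapped, at 13.42 ± 1.114 and 15.97 ± 1.929 in HuMgat2 and at 16.74 ± 4.623 and 14.45 ± 2.691 in WT. In WT on HFD the mean of Fabp2 was the higher, at 50.08 ± 26.1 against 24.37 ± 7.751 for Cd36, with a wide spread that includes library 4. The other 5 genes lay between 1.777 and 10.57 CPM per kb, apart from Fabp5 in WT on HFD at 19.09 ± 16.98. In HuMgat2 on HFD the mean ± SD of Slc27a4 overlapped that of Fabp4, and Slc27a1 that of Fabp5, while in HuMgat2 on chow Lpl, Fabp4 and Fabp5 overlapped. The order of these low genes depends on the length used: the exon length in the count table is 4489 bases for Fabp4, its whole genomic span, against 896 bases for its coding transcript, and with it the Fabp4 level in HuMgat2 on HFD is 1.45 in place of 7.267 CPM per kb. Within each group, the first 5 places held the same genes in the same order with either length.

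**Figure D2:**
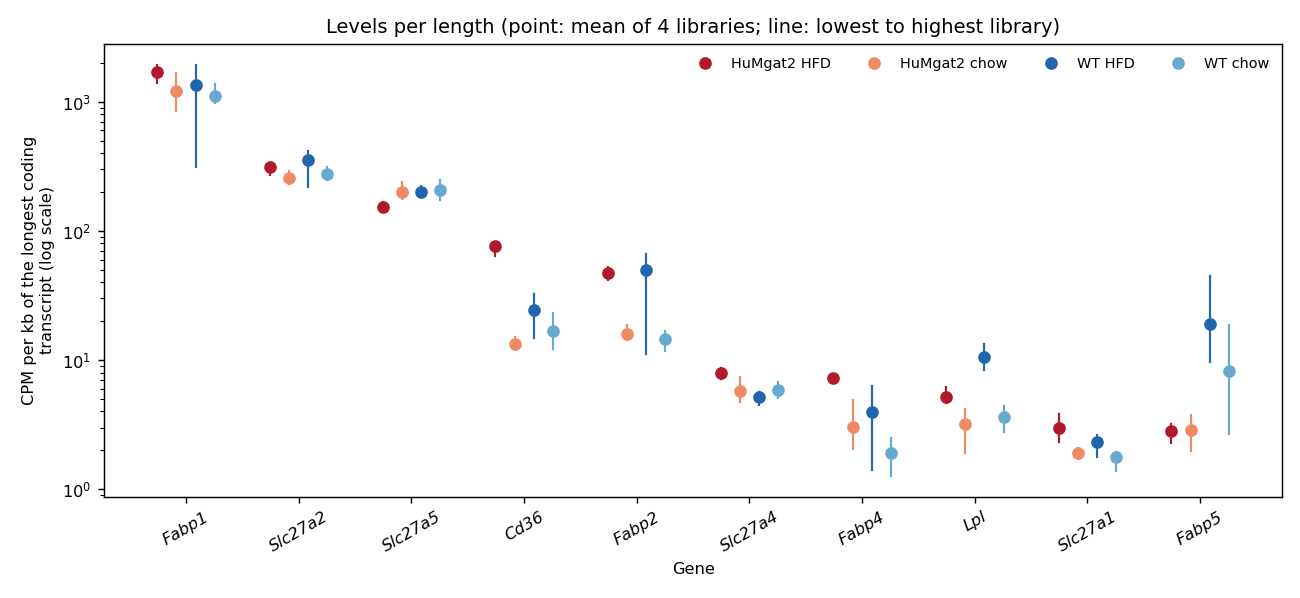
Levels of the 10 genes in CPM per kb of the longest coding transcript on a log scale, by group; points are means of 4 libraries and lines run from the lowest to the highest library. Fabp1 is highest in all 4 groups, Cd36 in HuMgat2 on HFD stands at 75.69 CPM per kb, and the WT HFD lines for Fabp1, Fabp2 and Fabp5 reach to the value of library 4.

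Among the 4 binding protein transcripts, counted per length, Fabp1 made up 96.7 ± 0.330% in HuMgat2 on HFD, 98.14 ± 0.408% in HuMgat2 on chow, 92.76 ± 5.57% in WT on HFD and 97.8 ± 0.654% in WT on chow. Fabp2 made up 2.716 ± 0.255% in HuMgat2 on HFD against 1.352 ± 0.292% in HuMgat2 on chow, and 3.465 ± 0.687% in WT on HFD against 1.291 ± 0.223% in WT on chow. Fabp5 made up 0.1947% of the pool at most in HuMgat2 on HFD and 0.3456% at most in HuMgat2 on chow. In WT on HFD its share was 0.6726, 0.4785, 0.6591 and 12.13%, the last in library 4, and in WT on chow 0.2702 to 1.718%. Among the 4 Slc27a transcripts, Slc27a2 and Slc27a5 together held nearly all of the pool. Slc27a2 made up 65.19 ± 2.933% and Slc27a5 32.52 ± 2.709% in HuMgat2 on HFD, against 55.53 ± 4.804% and 42.82 ± 4.612% in HuMgat2 on chow. In WT the Slc27a2 share was 62.15 ± 8.889% on HFD, with 48.86% in library 4, and 56.25 ± 3.576% on chow. These shares are descriptions and were not tested.

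Counting the genes by direction, 6 of the 10 rose and 0 fell on HFD in HuMgat2 liver: Cd36, Slc27a1, Slc27a4, Fabp2, Fabp4 and Lpl. The edgeR quasi-likelihood test called a gene changed at a Benjamini-Hochberg adjusted p below 0.05 over all genes tested, and by that rule 14% of all genes were called in this comparison, 7.56% higher and 6.4% lower. The median log2 change was 0.57 over the 10 genes and -0.01 over all genes. WT HFD library 4 is in neither group of this comparison and enters it through the shared filter, scaling and estimate of spread. Without it, 19.2% of the 17642 genes then tested were called, and the same 6 genes rose while Slc27a5 fell. In WT liver, 3 of the 10 rose on HFD and 0 fell: Fabp2, Fabp4 and Lpl. The background there was 15.1%, with 8.37% higher and 6.74% lower, and the median log2 change was 0.46 over the 10 genes and 0.03 over all genes. Without library 4, 6 of the 10 rose in WT, with Cd36, Slc27a2 and Fabp1 added, against a background of 14.7%.

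Between genotypes on HFD, Cd36 and Slc27a4 were higher in HuMgat2 than in WT and Fabp5 and Lpl lower, so 4 of the 10 were called against 14.8% of all genes, of which 7.21% higher and 7.56% lower. The median log2 change of the 10 was 0.11, against -0.04 for all genes. Without library 4, Fabp2 was lower as well, which makes 5 of the 10 against 14.2%. On chow the edgeR test called 0 of the 10 between genotypes, against 0.508% of all genes, 0.266% higher and 0.243% lower; without library 4 it again called 0 of the 10, against 1.16%. Only Fabp5 had an unadjusted p under 0.05 on chow (p = 0.0145), and DESeq2 also called 0 of the 10. The test of the difference between the diet effects of the genotypes, the interaction, called 1 of the 10, Cd36, against 4.87% of all genes, 2.61% higher and 2.26% lower, and without library 4 again Cd36 alone, against 6.4%. The diet and genotype comparisons share libraries, so their counts are not independent of each other. Scaling by total counts alone, with no TMM factor, shifted the median log2 change of all genes to 0.23 for diet in HuMgat2, -0.05 for diet in WT, 0.14 for genotype on HFD, -0.15 for genotype on chow and 0.28 for the interaction. The share of higher genes among all calls was then 89.1%, 37.9%, 81.5%, 30.7% and 91% in that order, against 54.1%, 55.4%, 48.8%, 52.3% and 53.6% with TMM scaling; with only its own groups fitted, the diet comparison in WT gave 45.1%.

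**Figure D3:**
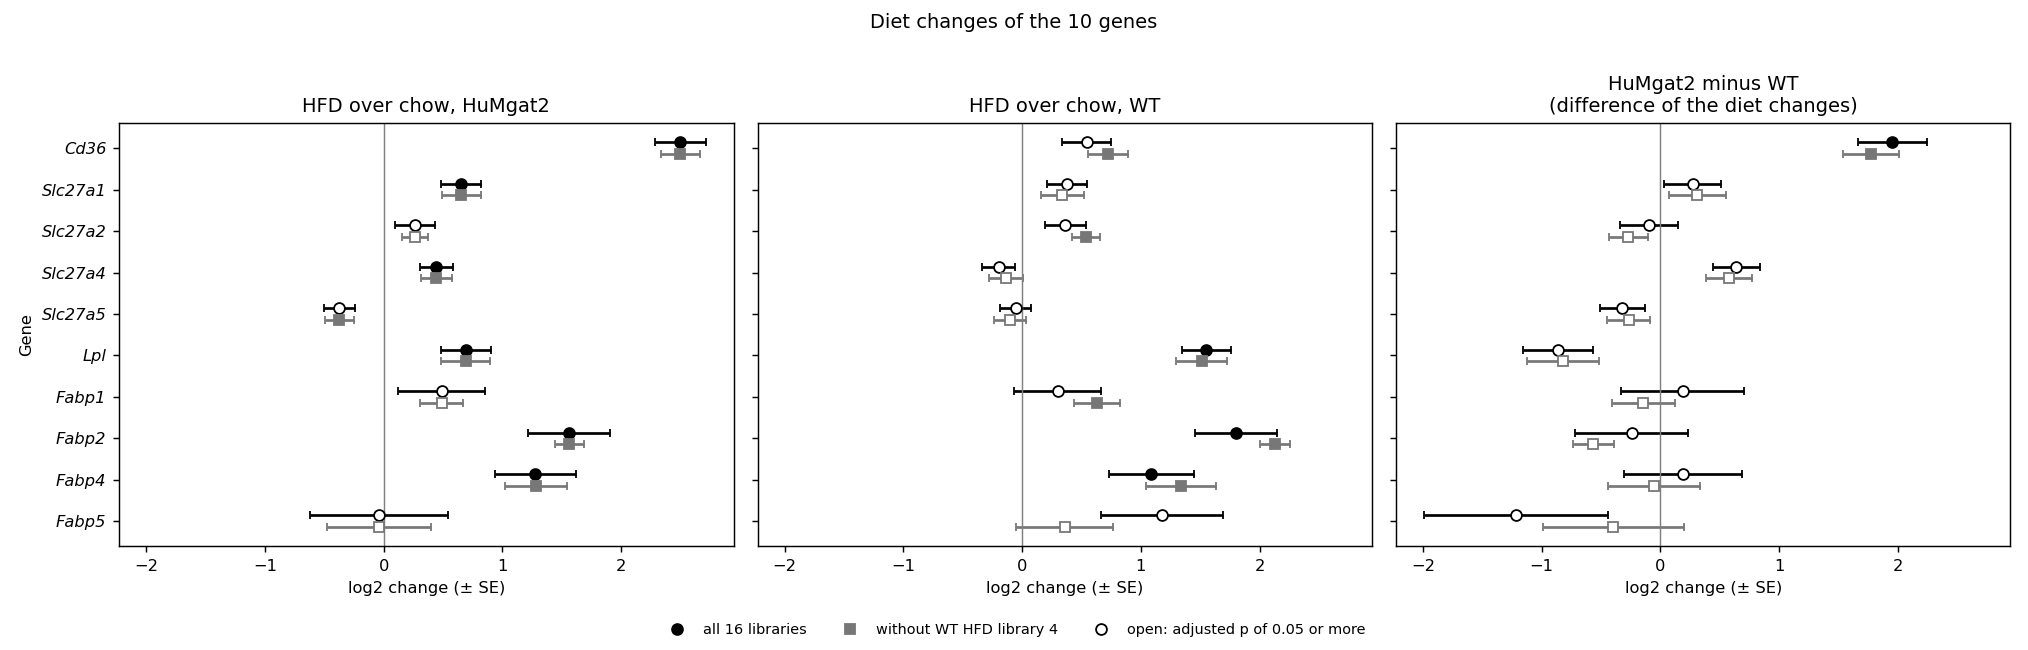
Log2 change ± SE of the 10 genes for HFD over chow in HuMgat2, for HFD over chow in WT, and for the difference of these changes, from the edgeR fit of all 16 libraries (black circles) and of 15 libraries without WT HFD library 4 (grey squares); filled symbols have an adjusted p below 0.05. The Cd36 change was 2.50 in HuMgat2 and 0.54 in WT, and Cd36 alone is filled in the panel of the difference.

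Cd36, on chromosome 5 (17986688 to 18093745, minus strand, GRCm39), had the largest diet change of the 10 genes in HuMgat2. Its level was 218.4, 260.6, 277.4 and 272.7 CPM in the 4 HuMgat2 HFD libraries, against 51.27, 43.92, 43.29 and 43.96 CPM in HuMgat2 on chow. In WT it was 95.6, 74.94, 110.8 and 50.05 CPM on HFD, the last value being library 4, against 53.2, 41.04, 54.77 and 78.6 CPM on chow. Every HuMgat2 HFD library lay above every other library of the study, the HuMgat2 chow libraries were tightly grouped, and the WT diet groups overlapped. Cd36 was 5.64-fold higher on HFD in HuMgat2 (log2 2.50 ± 0.22 SE, edgeR adjusted p = 3.07e-06) and 1.46-fold higher in WT, which did not pass the test (log2 0.54 ± 0.20, adjusted p = 0.0839). Without WT HFD library 4 the WT change was 0.72 and passed (adjusted p = 0.00837), as it did without WT chow library 8 (0.74, adjusted p = 0.0293). The diet effect was larger in HuMgat2 than in WT by 1.95 ± 0.29 on the log2 scale (interaction adjusted p = 0.00101), and by 1.78 without library 4 (adjusted p = 0.000246). On HFD, Cd36 exceeded its WT level 3.1-fold in HuMgat2 (log2 1.63 ± 0.21, adjusted p = 9.32e-05; 2.75-fold without library 4). On chow it stood at 45.61 ± 3.785 CPM in HuMgat2 and 56.9 ± 15.71 CPM in WT (SD, n = 4 each; log2 -0.32, adjusted p = 0.623).

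Cd36 is also made by endothelial cells and macrophages, and a bulk sample cannot tell more cells of a type from more RNA per cell. On HFD in HuMgat2, 2 of 10 liver endothelial markers rose and 0 fell, with a summed level of 356 to 365.8 CPM on HFD against 281.9 to 317.6 CPM on chow. Over all genes, 7.56% rose and 6.4% fell in that comparison. Of 10 macrophage and Kupffer cell markers none passed the edgeR test, with sums of 273.8 to 340.3 CPM on HFD against 204.9 to 258.5 CPM on chow; without WT HFD library 4, 2 rose. Of 7 markers of lipid-associated macrophages, 4 rose (Trem2, Gpnmb, Spp1 and Mmp12; 6 without library 4), with sums of 53.96 to 61.53 CPM against 25.89 to 36.44 CPM, and of 8 stellate cell and fibroblast markers 7 rose, with sums of 416.2 to 487 CPM against 204.9 to 333.5 CPM. These sums did not overlap between the diets, and no marker of the 4 lists had 0 counts in all libraries. WT HFD library 4 had the highest macrophage sum and the lowest hepatocyte marker sum of all libraries, and its Cd36 was the lowest of its group. The part of these cell types in the Cd36 levels was not tested.

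The promoters of Cd36, Fabp1 and Fabp2 are printed because these genes are the membrane receptor, the most abundant binding protein and a binding protein that rose on HFD in both genotypes, and because nuclear receptors of the PPAR family act on genes of this route through paired copies of the hexamer AGGTCA 1 base apart. Each runs from 250 bases before to 50 bases after a RefSeq transcription start in GRCm38.p6, an older build than that of the counts, and capitals mark exact copies of AGGTCA on either strand and matches to the pair AGGTCANAGGTCA with up to 2 mismatches on either strand. Of the 10 genes, 6 are in that promoter table: Cd36, Slc27a1, Slc27a2, Slc27a4, Fabp1 and Fabp2.
Cd36 (chr5:17835847-17836146, minus strand): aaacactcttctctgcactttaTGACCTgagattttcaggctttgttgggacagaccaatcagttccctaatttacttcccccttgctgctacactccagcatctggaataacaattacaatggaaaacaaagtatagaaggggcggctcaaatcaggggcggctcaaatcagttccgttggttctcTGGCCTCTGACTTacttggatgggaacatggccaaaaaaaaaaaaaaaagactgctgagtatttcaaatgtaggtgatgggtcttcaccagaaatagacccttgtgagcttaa
Fabp1 (chr6:71199629-71199928, plus strand): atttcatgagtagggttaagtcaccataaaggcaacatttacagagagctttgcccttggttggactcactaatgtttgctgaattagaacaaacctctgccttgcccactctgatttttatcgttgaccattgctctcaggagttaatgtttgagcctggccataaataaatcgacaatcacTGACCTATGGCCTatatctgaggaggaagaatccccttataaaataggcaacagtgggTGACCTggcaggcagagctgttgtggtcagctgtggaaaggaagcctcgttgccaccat
Fabp2 (chr3:122894822-122895121, plus strand): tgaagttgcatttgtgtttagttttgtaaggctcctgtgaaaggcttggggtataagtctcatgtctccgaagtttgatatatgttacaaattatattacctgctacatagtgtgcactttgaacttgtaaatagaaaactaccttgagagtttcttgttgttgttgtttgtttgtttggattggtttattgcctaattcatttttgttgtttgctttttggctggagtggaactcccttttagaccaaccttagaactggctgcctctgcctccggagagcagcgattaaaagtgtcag
The Cd36 window held 1 pair with 2 mismatches, TGGCCTCTGACTT, which starts at position -63 from the start site and reads along the pair on the other strand, and 1 hexamer, TGACCT on the printed strand, at -228. The Fabp1 window held 1 pair with 1 mismatch, TGACCTATGGCCT at -67, whose first 6 bases are an exact hexamer, and another hexamer at -9. The Fabp2 window held neither. Among 32851 promoters of the same length, 3.86% held the pair with up to 2 mismatches, 0.554% with up to 1, and 16.3% an exact hexamer. The Slc27a2 window held 1 hexamer and no pair, and the windows of Slc27a1 and Slc27a4 held neither. These matches are descriptions of letters and not of binding.

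Of 16 nuclear receptors and regulators of fatty acid handling, 1 rose and 1 fell on HFD in HuMgat2, and 2 rose and 1 fell in WT. Without WT HFD library 4 the counts were 3 and 2 in HuMgat2, and 4 and 1 in WT. Of all genes tested, 14% were called for diet in HuMgat2, 15.1% for diet in WT and 14.8% between genotypes on HFD. Without library 4 these shares were 19.2%, 14.7% and 14.2%. Pparg, which drives lipid storage genes in adipocytes and fatty liver, averaged 22.79 ± 3.744 CPM on HFD and 7.93 ± 0.710 CPM on chow in HuMgat2 (log2 1.52 ± 0.27, edgeR adjusted p = 0.00116). In WT Pparg averaged 15.47 ± 7.35 CPM on HFD and 12.79 ± 0.547 CPM on chow and was not called (log2 0.29, adjusted p = 0.497), but without library 4 it was (log2 0.56, adjusted p = 0.0111). The difference between these diet effects did not pass the test with all libraries (log2 1.23 ± 0.37, adjusted p = 0.0694) and passed without library 4 (0.97, adjusted p = 0.00504). Ppara, the receptor behind fatty acid oxidation, rose in WT (log2 0.62 ± 0.17, adjusted p = 0.0189), and its change in HuMgat2 was 0.51 (adjusted p = 0.0515; 0.00736 without library 4). Srebf1, which drives fatty acid synthesis, averaged 504.3 ± 155.1 CPM on HFD and 191.6 ± 13.03 CPM on chow in WT and rose there (adjusted p = 0.000811). In HuMgat2 it averaged 274.1 ± 56.91 CPM on HFD and 173.5 ± 45.06 CPM on chow. That change was 0.66 on the log2 scale and not called by edgeR (adjusted p = 0.0574), but it was called without library 4 (adjusted p = 0.011). Hnf4a, a keeper of hepatocyte identity, fell by 0.48 in HuMgat2 (adjusted p = 0.0304) and by 0.54 in WT (adjusted p = 0.0176). On HFD, 0 of the 16 were higher and 2 lower in HuMgat2 than in WT, and 1 higher and 2 lower without library 4. The 2 lower genes with all libraries were Srebf1 (log2 -0.88, adjusted p = 0.0145) and Ppargc1b, a coactivator (log2 -0.72, adjusted p = 0.0453).

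Of the 4 fatty acid transport protein genes, Slc27a1 and Slc27a4 rose on HFD in HuMgat2, and 0 were called in WT with all libraries. Slc27a1 (chromosome 8, 72021526 to 72039946, plus strand), the form of muscle and adipose tissue, was at 8.02, 7.92, 10.7 and 6.54 CPM in HuMgat2 on HFD, against 5.55, 4.78, 5.00 and 5.85 CPM in HuMgat2 on chow. All HFD libraries lay above all chow libraries, by the least for HFD library 12. The rise was 1.57-fold (log2 0.65 ± 0.17, edgeR adjusted p = 0.0149), and without HuMgat2 HFD library 11 it did not pass (log2 0.50, adjusted p = 0.0612). In WT, Slc27a1 averaged 6.478 ± 1.079 CPM on HFD and 4.966 ± 0.742 CPM on chow (log2 0.38, adjusted p = 0.141). Between genotypes on HFD the Slc27a1 difference was 0.359 ± 0.165 and not called by edgeR (adjusted p = 0.149). Slc27a4 (chromosome 2, 29692646 to 29707534, plus strand), a widely expressed form best known in intestine and skin, was at 28.9, 29.3, 34.9 and 35.0 CPM in HuMgat2 on HFD, against 19.2, 24.5, 20.2 and 30.1 CPM in HuMgat2 on chow. Chow library 16 fell inside the HFD range. In WT the 4 libraries had 22.0, 22.8, 20.4 and 18.0 CPM on HFD, against 26.0, 21.5, 27.4 and 20.7 CPM on chow. All HuMgat2 HFD libraries lay above all WT HFD libraries, and the WT diet groups overlapped. On HFD the Slc27a4 level of HuMgat2 exceeded that of WT 1.53-fold (log2 0.62 ± 0.14, adjusted p = 0.00718; 0.56 without library 4, adjusted p = 0.0148). Its diet rise in HuMgat2 was 1.36-fold and close to the threshold (log2 0.44 ± 0.14, adjusted p = 0.041): leaving out 1 library took the adjusted p above 0.05 in 9 of 16 cases, with log2 changes of 0.36 to 0.58 over all 16. Those libraries were HuMgat2 HFD 10, 11 and 12, HuMgat2 chow 13, 14 and 15, WT HFD 3 and WT chow 5 and 6. The interaction for Slc27a4 was 0.64 ± 0.20 (adjusted p = 0.0746), and 0.78 without HuMgat2 chow library 16 (adjusted p = 0.0213).

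The hepatocyte forms Slc27a2 and Slc27a5 were not called in either diet comparison with all libraries. Slc27a2 (chromosome 2, 126394327 to 126430163, plus strand), which also activates very long-chain fatty acids, was at 934.8, 962.8, 930.8 and 788.5 CPM in HuMgat2 on HFD, against 849.6, 669.2, 727.5 and 768.6 CPM on chow, and was not called (log2 0.26 ± 0.17, edgeR adjusted p = 0.35). The WT libraries had 1208, 1146, 1147 and 635.1 CPM on HFD, against 763.4, 718.9, 906.7 and 828.9 CPM on chow. The first 3 WT HFD libraries lay above all chow libraries and library 4 lay below all of them. With library 4 the WT change was 0.36 ± 0.17 (adjusted p = 0.171), and without it 0.54 ± 0.12 (adjusted p = 0.00617). Between genotypes on HFD the Slc27a2 difference was -0.19 ± 0.17 (edgeR adjusted p = 0.474). Without library 4 it was -0.37 ± 0.12 and close to the threshold (adjusted p = 0.0505). Slc27a5 (chromosome 7, 12722273 to 12732119, minus strand), which also activates bile acids, was at 340.7, 329.2, 380.2 and 360.2 CPM in HuMgat2 on HFD, against 404.2, 475.7, 404.7 and 542.5 CPM on chow. All HFD libraries lay below all chow libraries, and the change of -0.37 ± 0.13 on the log2 scale had an edgeR adjusted p of 0.0713, or 0.0436 without WT HFD library 4. DESeq2 called this fall (log2 -0.38, adjusted p = 0.0286). In WT, Slc27a5 averaged 458.1 ± 41.25 CPM on HFD and 475.2 ± 76.82 CPM on chow (log2 -0.05, adjusted p = 0.836). Between genotypes on HFD its 4 HuMgat2 libraries lay below all 4 WT libraries, with a log2 difference of -0.38 ± 0.13 that did not pass the test (adjusted p = 0.0636).

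**Figure D4:**
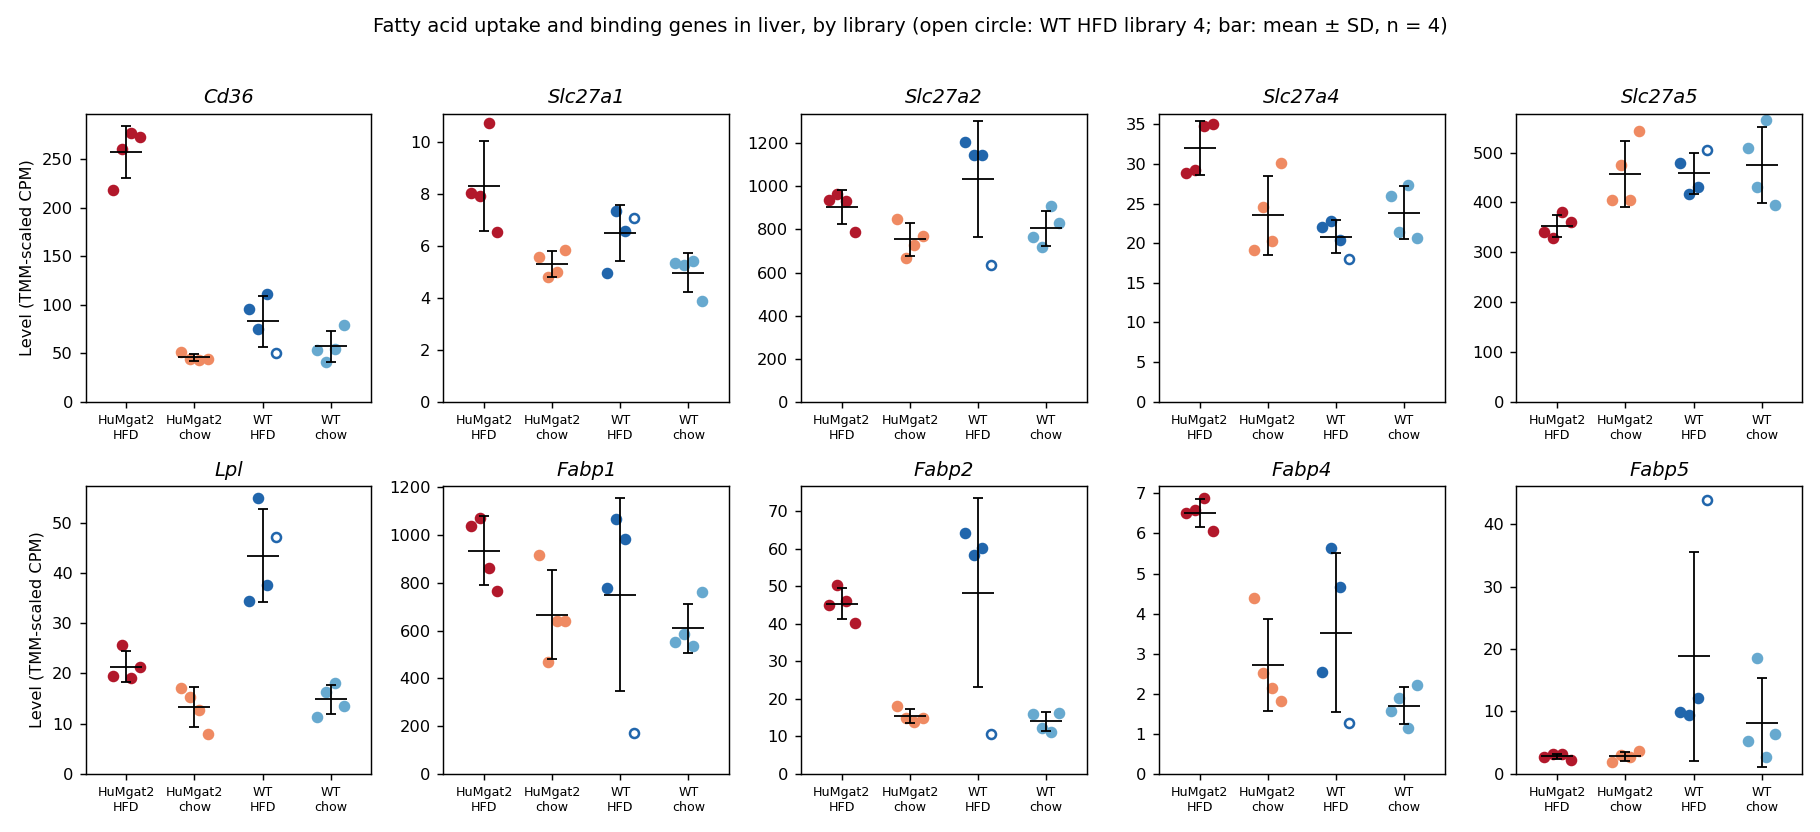
TMM-scaled CPM of the 10 genes in each library, by group; each point is 1 library, black bars show the mean ± SD of 4 libraries, and the open circle is WT HFD library 4. The 4 HuMgat2 HFD libraries lie between 218.4 and 277.4 CPM for Cd36, above all others, the 4 WT HFD libraries between 34.39 and 54.91 CPM for Lpl, above all others, and library 4 has the lowest Fabp2 and the highest Fabp5 of all libraries.

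Lpl, on chromosome 8 (69333143 to 69360100, plus strand), rose on HFD in both genotypes. It was at 19.5, 25.7, 19.0 and 21.3 CPM in HuMgat2 on HFD, against 17.1, 15.4, 12.7 and 7.87 CPM in HuMgat2 on chow. WT libraries held 34.4, 54.9, 37.5 and 47.1 CPM on HFD, against 11.3, 16.2, 18.1 and 13.6 CPM on chow. The diet groups did not overlap in either genotype, and all WT HFD libraries, library 4 included, lay above all HuMgat2 HFD libraries. The increase was 2.93-fold in WT (log2 1.55 ± 0.21, edgeR adjusted p = 0.000243; 1.51 without library 4) and 1.61-fold in HuMgat2 (log2 0.69 ± 0.21, adjusted p = 0.0364). The HuMgat2 change did not pass without HFD library 10 (0.59, adjusted p = 0.116), HFD library 12 (0.69, adjusted p = 0.0706), chow library 15 (0.67, adjusted p = 0.0838) or chow library 16 (0.51, adjusted p = 0.0896). On HFD the Lpl level was lower in HuMgat2, 2.04-fold below WT (log2 -1.02 ± 0.21, adjusted p = 0.00357; -0.98 without library 4, adjusted p = 0.00508). The difference between the diet effects was -0.86 ± 0.29 (interaction adjusted p = 0.112), and it passed only without HuMgat2 chow library 16 (-1.04, adjusted p = 0.0269). On chow, Lpl averaged 13.27 ± 4.028 CPM in HuMgat2 and 14.82 ± 2.962 CPM in WT.

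Lpl is made by adipocytes, muscle and macrophages. Of 7 adipocyte markers, 3 were tested. On HFD 1 rose in HuMgat2, complement factor D (Cfd), and 2 in WT, Cfd and Pnpla2. Over all genes, 7.56% rose on HFD in HuMgat2 and 8.37% in WT. Adipoq, Plin1, Lep and Retn averaged below 0.1 CPM in every group. The sums were 53.72 to 59.2 CPM in HuMgat2 on HFD and 41.25 to 51.5 CPM in HuMgat2 on chow. In WT they were 63.39 to 198.7 CPM on HFD and 45.68 to 58.67 CPM on chow. Pnpla2, at 37.38 to 63.59 CPM per library, made up most of the sum in all libraries but WT HFD 1, 2 and 3. Cfd was at 3.01 to 6.97 CPM in HuMgat2 on HFD, against 83.24, 129.9, 78.92 and 0.159 CPM in WT on HFD, the last in library 4. Lpl in the same WT HFD libraries was 34.39, 54.91, 37.52 and 47.11 CPM. Of 5 markers of skeletal and heart muscle, Ckm, Acta1, Mb and Myh6 averaged below 0.1 CPM over the 16 libraries, with Myh6 at 0 counts throughout. The sums were at most 0.749 CPM. Of 10 macrophage and Kupffer cell markers, 5 rose on HFD in WT, with sums of 272 to 1084 CPM on HFD against 169.2 to 289 CPM on chow, and without library 4, 3 rose. Of 7 lipid-associated macrophage markers, 6 rose and 0 fell on HFD in WT, with sums of 30.09 to 128.1 CPM on HFD against 25.77 to 40.53 CPM on chow, and without library 4, 3 rose and 1 fell. Between genotypes on HFD, 2 of the 10 macrophage and Kupffer cell markers were called lower in HuMgat2, and 0 without library 4. The part of these cell types in the Lpl changes was not tested.

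Of 15 genes for partners of lipoprotein lipase and lipoprotein receptors, 3 rose and 2 fell on HFD in HuMgat2, or 4 and 3 without library 4. In WT edgeR called 0, and 1 fell without library 4. The shares called over all genes were 14% in HuMgat2 and 15.1% in WT, or 19.2% and 14.7% without library 4. Vldlr, a receptor that takes up triglyceride-rich lipoproteins and is scarce in normal liver, averaged 14.49 ± 3.26 CPM on HFD and 5.595 ± 2.869 CPM on chow in HuMgat2 (log2 1.36 ± 0.42, adjusted p = 0.0381). In WT, Vldlr averaged 2.899 ± 1.539 CPM on HFD and 7.106 ± 3.778 CPM on chow, and its diet effects differed between the genotypes (interaction log2 2.62 ± 0.61, adjusted p = 0.0197). Lipc, the hepatic lipase, fell by 0.64 in HuMgat2 (adjusted p = 0.00937), and its WT change of -0.33 was not called (adjusted p = 0.154). Angptl8, a feeding-induced inhibitor of lipoprotein lipase, fell by 1.35 in HuMgat2 (adjusted p = 0.0287). In WT the Angptl8 change was -0.75 and not called by edgeR (adjusted p = 0.222). Without library 4 it was -1.34 in WT and was called (adjusted p = 0.0109). On HFD 4 of the 15 were higher and 1 lower in HuMgat2 than in WT, against 14.8% of all genes called in either direction. Without library 4 the counts were again 4 and 1, against 14.2%. The anchor of the lipase on endothelium, Gpihbp1, averaged 9.451 ± 0.641 CPM in HuMgat2 and 6.412 ± 1.644 CPM in WT (log2 0.55 ± 0.14, adjusted p = 0.0158), while Lrp1, a receptor for lipoprotein remnants, was lower (log2 -0.90 ± 0.22, adjusted p = 0.0101; -0.57 without library 4).

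Among the binding proteins, Fabp2 rose on HFD in both genotypes. Fabp2 (chromosome 3, 122688721 to 122693155, plus strand) was at 44.9, 50.4, 46.0 and 40.2 CPM in HuMgat2 on HFD, against 18.1, 14.8, 13.7 and 15.0 CPM in HuMgat2 on chow. The WT level was 64.1, 58.3, 60.2 and 10.7 CPM on HFD, the last in library 4, against 16.0, 12.2, 11.2 and 16.3 CPM on chow. The HuMgat2 diet groups were far apart, and in WT library 4 lay below all chow libraries while the other HFD libraries lay above them. Fabp2 was 2.95-fold higher on HFD in HuMgat2 (log2 1.56 ± 0.34, edgeR adjusted p = 0.00592) and 3.48-fold higher in WT (log2 1.80 ± 0.34, adjusted p = 0.00263; 4.37-fold without library 4, log2 2.13 ± 0.13, adjusted p = 5.16e-08). Between genotypes on HFD the difference was -0.10 ± 0.33 (adjusted p = 0.871). Without library 4 the HuMgat2 level was lower by -0.42 ± 0.12 on the log2 scale (adjusted p = 0.0293), and without WT HFD library 1, 2 or 3 the difference was 0.06, 0.00 or 0.02 and not called. The interaction for Fabp2 did not pass with all libraries (-0.24, adjusted p = 0.837) or without library 4 (-0.56 ± 0.17, adjusted p = 0.0625). Of 8 intestinal epithelium markers, Cdx2 had 0 counts in all libraries. Sis, Alpi, Muc2, Krt20 and Cdh17 averaged below 0.1 CPM over the 16 libraries. The sums were at most 9.075 CPM and were mostly Lgals4, at 2.701 to 8.792 CPM per library. The antisense neighbour 4933405D12Rik overlaps Fabp2 on the opposite strand with 138 counts over all libraries, against 10980 for Fabp2, and the counting command shows no strand option.

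Fabp1 (chromosome 6, 71176811 to 71182007, plus strand), the highest of the 10 per kb of transcript, was at 1039, 1071, 860.7 and 767.8 CPM in HuMgat2 on HFD, against 917.2, 468.3, 641.2 and 640.6 CPM in HuMgat2 on chow. In WT it was at 778.2, 1067, 985.2 and 171.4 CPM on HFD, the last in library 4, against 551.8, 586.5, 536.8 and 762 CPM on chow. The diet groups overlapped in HuMgat2, and in WT all HFD libraries but library 4 lay above all chow libraries. Fabp1 was not called on HFD in HuMgat2 (log2 0.49 ± 0.37, edgeR adjusted p = 0.423) or in WT (log2 0.30 ± 0.37, adjusted p = 0.638), and without library 4 it rose 1.55-fold in WT (log2 0.63 ± 0.20, adjusted p = 0.0395). Between genotypes on HFD its log2 difference was 0.32 ± 0.37 (adjusted p = 0.596), and -0.01 without library 4.

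Fabp4 (chromosome 3, 10269148 to 10273636, minus strand) was a low gene, with 16 to 162 counts per library. It was at 6.511, 6.595, 6.888 and 6.05 CPM in HuMgat2 on HFD, against 4.391, 2.505, 2.148 and 1.826 CPM in HuMgat2 on chow. WT liver had 2.54, 5.633, 4.659 and 1.271 CPM on HFD, against 1.559, 1.897, 1.133 and 2.224 CPM on chow. The HuMgat2 HFD libraries were above all other libraries, and the WT diet groups overlapped through library 4, the lowest HFD value. The change was 2.42-fold in HuMgat2 (log2 1.28 ± 0.34, edgeR adjusted p = 0.0185), which did not pass without HuMgat2 chow library 15 (1.19, adjusted p = 0.0579) or 16 (1.13, adjusted p = 0.0595). In WT it was 2.12-fold and just inside the threshold (log2 1.09 ± 0.36, adjusted p = 0.0497). Leaving out 1 library took the WT change past it in 13 of 16 cases, with log2 changes of 0.78 to 1.34; the call held without HuMgat2 chow library 13, WT HFD library 1 and WT HFD library 4 (1.34 ± 0.29, adjusted p = 0.00534 for the last). Between genotypes on HFD the difference was 0.85 ± 0.33 (adjusted p = 0.0937), and 1.16 without WT HFD library 2 (adjusted p = 0.041). The interaction was 0.19 ± 0.49 (adjusted p = 0.883). Fabp4 is a marker of adipocytes and is also made by endothelial cells and macrophages; the sums of those lists are given with Cd36 and Lpl, and their part in the Fabp4 change was not tested.

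Fabp5 (chromosome 3, 10077608 to 10081667, plus strand) was the one binding protein gene called between genotypes on HFD with all libraries. It was at 2.64, 3.14, 3.10 and 2.24 CPM in HuMgat2 on HFD, against 1.94, 2.96, 2.74 and 3.70 CPM in HuMgat2 on chow. In WT libraries it was 9.87, 9.47, 12.1 and 43.9 CPM on HFD, the last in library 4, against 5.197, 18.55, 2.63 and 6.377 CPM on chow. All HuMgat2 HFD libraries lay below all WT HFD libraries, whereas WT chow spread widely, with chow library 6 above 3 of the WT HFD libraries. On HFD the Fabp5 level was lower in HuMgat2, 6.65-fold below WT (log2 -2.73 ± 0.56, edgeR adjusted p = 0.00399), and 3.76-fold lower without library 4 (log2 -1.91 ± 0.43, adjusted p = 0.0063). On chow it was 2.86-fold lower in the mean, which did not pass the test (log2 -1.52 ± 0.56, adjusted p = 0.31; log2 -0.71 without WT chow library 6). The diet change was -0.04 ± 0.58 in HuMgat2 (adjusted p = 0.976) and 1.18 ± 0.52 in WT (adjusted p = 0.136). The WT value was 0.36 without WT HFD library 4 (adjusted p = 0.623) and 1.94 without WT chow library 6 (adjusted p = 0.0162), and the interaction was -1.22 ± 0.77 (adjusted p = 0.433). In WT HFD library 4, where Fabp5 was highest, summed neutrophil markers were 15.01 CPM, against 1.252 CPM at most elsewhere, and summed lipid-associated macrophage markers 128.1 CPM, against 61.53 CPM at most; between genotypes on HFD, 1 of the 7 lipid-associated macrophage markers was higher in HuMgat2, and 5 without library 4. Of the 10 macrophage and Kupffer cell markers, on HFD 0 were higher in HuMgat2 and 2 were lower, with sums of 273.8 to 340.3 CPM in HuMgat2 and 272 to 1084 CPM in WT, and without library 4 the edgeR test called 0. Their part in the Fabp5 difference was not tested. Of 5 processed pseudogenes that match the Fabp5 transcript over 336 bases or more at 93.6% identity or more, the largest count was 284 over all libraries, for Gm6166, against 2476 for Fabp5. The counting command shows no multi-mapping option, so reads that fit several copies equally well may be missing from the counts of all of them. How many Fabp5 reads were affected was not tested.

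**Figure D5:**
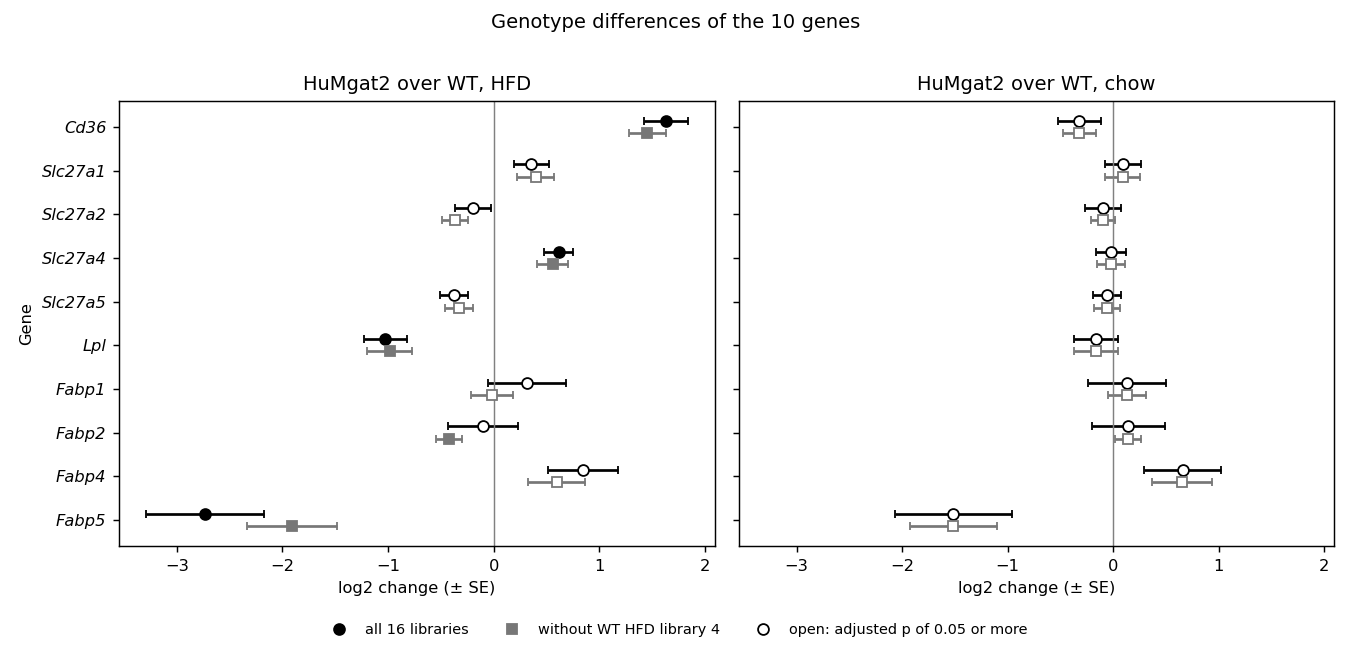
Log2 difference ± SE of the 10 genes for HuMgat2 over WT on HFD and on chow, from the edgeR fit of all 16 libraries (black circles) and of 15 libraries without WT HFD library 4 (grey squares); filled symbols have an adjusted p below 0.05. On HFD Cd36 (1.63) and Slc27a4 (0.62) are higher and Fabp5 (-2.73) and Lpl (-1.02) lower, and on chow all symbols are open.

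The relatives of these genes were mostly too low to test. Of 12 other members of the transport and lipid-binding protein families, 3 passed the filter, and edgeR called 0 of the 3 in any comparison with all libraries; without library 4, 1 was higher in HuMgat2 than in WT on HFD. Of 11 tested genes of membrane fatty acid and lysolipid entry, 1 rose and 1 fell on HFD in HuMgat2 and 2 rose in WT. Without library 4 the counts were 3 and 1 in HuMgat2 and 2 and 0 in WT. The shares of all genes called were 14% for diet in HuMgat2, 15.1% for diet in WT and 14.8% between genotypes on HFD. Without library 4 those shares were 19.2%, 14.7% and 14.2%. Mfsd2a, a transporter of lysophospholipids that carry polyunsaturated fatty acids, rose in both, to 96.63 ± 42.29 CPM on HFD against 19.15 ± 9.914 CPM on chow in HuMgat2 (log2 2.32 ± 0.41, edgeR adjusted p = 0.0012) and to 81.99 ± 27.4 CPM on HFD against 22 ± 8.647 CPM on chow in WT (log2 1.90 ± 0.40, adjusted p = 0.00514). Scarb1, a scavenger receptor of the Cd36 family that takes up cholesterol from high-density lipoprotein, fell in HuMgat2 and rose in WT: it averaged 68.13 ± 7.384 CPM on HFD and 94.56 ± 9.816 CPM on chow in HuMgat2 (log2 -0.47 ± 0.13, adjusted p = 0.0206), and 145.5 ± 13.7 CPM on HFD and 107.5 ± 20.95 CPM on chow in WT (log2 0.44 ± 0.13, adjusted p = 0.0309; 0.39 without library 4, adjusted p = 0.0605). The interaction for Scarb1 was -0.91 ± 0.18 (adjusted p = 0.00807), and on HFD Scarb1 was lower in HuMgat2 than in WT (log2 -1.09, adjusted p = 4.63e-05) while Cavin1, a caveolar coat protein, was higher (log2 0.69, adjusted p = 0.00415). Of 12 tested acyl-CoA synthetase and binding genes, 0 rose and 1 fell on HFD in HuMgat2, the medium-chain synthetase Acsm1 (log2 -0.71 ± 0.11, adjusted p = 0.00046), and 0 rose and 1 fell in WT, the peroxisomal Acbd5 (log2 -0.44 ± 0.13, adjusted p = 0.0331). Without library 4, 2 rose and 1 fell in HuMgat2 and 3 rose and 1 fell in WT. On HFD, Acsl5 (log2 0.70, adjusted p = 0.0201) and Acsl3 (log2 0.64, adjusted p = 0.0296; 0.0551 without library 4), long-chain synthetases, were higher in HuMgat2 than in WT and Acsm1 lower (log2 -0.46, adjusted p = 0.0102). Without library 4, 1 of the 12 was higher and 2 lower. None of the genes in these 5 lists was called between genotypes on chow with all libraries by edgeR, and without library 4 Pparg alone was, as lower in HuMgat2 (log2 -0.69, adjusted p = 0.0145).

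Over the 16 libraries the 10 genes did not follow 1 pattern. The levels were compared as log2 CPM, and since the libraries fall into 4 groups and share their scaling these correlations are descriptions. Fabp2 and Slc27a2 (Pearson r = 0.83), Fabp2 and Fabp4 (0.81) and Cd36 and Fabp4 (0.8) were the most alike pairs, and Slc27a5 ran against Fabp4 (-0.84) and Cd36 (-0.73). Among 14117 genes with a mean of at least 1 CPM, the 3 with the pattern most like Cd36 were L3hypdh (0.975), Lgals1 (0.966) and Dhrs7 (0.96). For Fabp2 they included Fads2 (0.955), a desaturase of polyunsaturated fatty acids, and Olfml1 (0.93). Those for Lpl were Tmem86a (0.955), Gm39041 (0.91) and Ripk2 (0.905), for Slc27a4 Akr1a1 (0.969), Pebp1 (0.924) and Cops6 (0.907), and for Fabp4 Dglucy (0.954), Gatb (0.926) and Btnl9 (0.921). For Slc27a1 they were Ltbp3 (0.87), Castor2 (0.859) and Eps8 (0.842). For Fabp5 they were Gm43984 (0.902), Prtn3 (0.871) and Cobl (0.87), whose values without WT HFD library 4 were 0.83, 0.782 and 0.776.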

How the data were processed

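Liver RNA from 16 libraries in 4 groups was analysed from raw counts per gene name that the authors deposited, made with featureCounts 2.0.1 on the GRCm39 annotation, release 103, per the file headers. The command in the header counts read pairs without a strand, multi-mapping or duplicate option. Per the labels' protocols, ribosomal RNA was depleted from total RNA of 15 mg of liver with an integrity number above 7 and libraries were stranded. STAR 2.7, DESeq2 1.26.0 and mm39 are named in the submitters' processing notes. Library columns were matched to groups by the names in their headers. 1 model of all 4 groups was fitted in R 4.3.3 by edgeR 4.0.16 with its quasi-likelihood method (TMM scaling, filterByExpr, no minimum fold). The p-values are two-sided and Benjamini-Hochberg adjusted over 17318 genes, and the common biological coefficient of variation was 0.197. The test was checked on simulated counts that had 1 common spread for all genes and no library set apart. That check therefore does not cover a library such as WT HFD library 4. Log2 CPM for correlations used a prior count of 2. Alternatives were DESeq2 1.42.0, its size factors, total counts alone, 2 other filters, a table without 91 genes of mitochondria, ribosomal RNA and hemoglobin, only the groups compared, and leaving out each library. Near-identical transcripts were searched with blastn 2.17.0 (85% identity over 200 bases). The 10 genes and all lists were chosen with earlier results of these data known. All 10 are drawn in the plots of log2 change for every comparison, though not every value is printed. Of each other list, at most 4 called genes per comparison were to be named, those with the smallest adjusted p and a mean of at least 1 CPM. For each called member the 3 genes most like it were added. Dividing levels by the coding transcript or the exon length was added after the data were seen. Depth per library limits low genes: Fabp4 had 16 counts in the shallowest library. Some genes that the naming rule selects are not reported here.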

Additional observations from a re-analysis of the deposited data

Results flagged for a closer look

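The diet effect on Cd36 differed between the genotypes by 1.952 on the log2 scale, larger in HuMgat2 than in WT, by the interaction test in edgeR (adjusted p = 0.00101), which is why it is listed here.

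Among 40 sets of 4 libraries (10 genes in 4 groups), 5 held 1 library set apart by Dixon's ratio, the gap to the nearest library over the range. A large ratio can therefore come with a small gap where the other libraries nearly tie. By chance about 1 in 20 independent sets would be flagged, but these sets share libraries. In 3 of them the library was WT HFD library 4: Slc27a2 at 635.1 CPM, with 1146 CPM in the nearest library, Fabp2 at 10.72 CPM, with 58.29 CPM in the nearest, and Fabp5 at 43.93 CPM, with 12.11 CPM in the nearest. The others were Cd36 in HuMgat2 chow library 13 at 51.27 CPM, with 43.96 CPM in the nearest, and Slc27a1 in WT chow library 8 at 3.856 CPM, with 5.275 CPM in the nearest.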

How the results depend on the processing

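Over the log2 changes of the 10 genes, the alternatives other than leaving out a library gave 320 values with the same direction and side of the threshold, 6 that newly passed, 6 that no longer passed and 8 that changed sign. Leaving out 1 library gave 744, 10, 29 and 17 such values. With total counts alone, 3733 genes were called for diet in HuMgat2 and 2303 for the interaction, and the signs turned for Fabp5 on diet in HuMgat2 (0.19), Fabp2 between genotypes on HFD (0.09), Slc27a1 (-0.07), Fabp1 (-0.04) and Fabp2 (-0.01) between genotypes on chow, and Slc27a2 (0.24), Slc27a5 (0.01) and Fabp2 (0.11) in the interaction. None of these 8 was called with TMM. Fitting only the groups compared called 1452 genes for diet in WT, and DESeq2 called 232 between genotypes on chow. The interaction called 2 of the 10 genes with DESeq2 and 2 with total counts alone, Slc27a4 being added at 0.66 and 0.97. The other newly passing changes were Slc27a5 on diet in HuMgat2 with DESeq2 (-0.38) and, with total counts alone, Slc27a2 on diet in HuMgat2 (0.52) and Slc27a1 (0.53) and Fabp4 (1.04) between genotypes on HFD. The diet rise of Slc27a4 in HuMgat2 (0.43) did not pass with DESeq2 size factors or with only its own groups, nor that of Fabp4 in WT with those (1.06 and 1.07), total counts alone (1) or the table without mitochondrial, ribosomal RNA and hemoglobin genes (1.08). The cause of these shifts was not tested.

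Leaving out each library in turn, the genes called ranged from 1627 to 3394 for diet in HuMgat2, 1673 to 2670 for diet in WT, 1585 to 2711 between genotypes on HFD, 53 to 204 between genotypes on chow and 529 to 1129 for the interaction. Of the 10 genes, 3 to 7, 2 to 6, 4 to 5, 0 and 1 to 3 were called in that order. Signs turned within ranges of -0.17 to 0.11 for Fabp5 on diet in HuMgat2, -0.13 to 0.04 for Slc27a5 on diet in WT, and -0.01 to 0.54 for Fabp1 and -0.42 to 0.06 for Fabp2 between genotypes on HFD. Between genotypes on chow the ranges were -0.01 to 0.14 for Slc27a1, -0.16 to 0.06 for Slc27a4, -0.15 to 0.04 for Slc27a5, -0.06 to 0.27 for Fabp1 and -0.3 to 0.02 for Lpl. In the interaction they were -0.14 to 0.41 for Fabp1 and -0.05 to 0.5 for Fabp4. No paired analysis was possible because the library numbers run from 1 to 16 and the groups share none. Low counts limit Fabp4 and Fabp5 most. Levels per kb depend on the length used, an alternative chosen after seeing the data.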
